A study of Mus musculus with 6 samples.

Results

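The AP-1 transcription factors were followed through 6 RNA sequencing libraries of cultured mouse muscle stem cells, 3 treated with prostaglandin E2 (PGE2) and 3 with its solvent DMSO (Vehicle). The 10 members were taken by exact symbol: the Fos proteins Fos, Fosb, Fosl1 and Fosl2, the Jun proteins Jun, Junb and Jund, and the related factors Atf3, Batf3 and Jdp2. All 10 were found among the 43283 genes of the deposited table, each in a single row. All libraries came from female C57BL/6 mice aged 8 to 12 weeks by the sample labels and 2 to 4 months by the series' design text. The cells were sorted from hindlimb muscle for α7-integrin and CD34 and against CD45, Sca1, CD31 and CD11b, and both groups were kept for 24 h in the same medium with 20% fetal bovine serum. Each library was made from the RNA of 5000 to 10000 cells, and the labels leave unsaid whether a replicate was its own animal, sort or culture. P-values weigh the difference between the groups against the spread among the libraries, part of which may therefore be technical. Values are TPM, the abundance of a transcript as its share of the library after correction for length, so levels can be compared between genes but read depth is unknown. Values of the 3 libraries of a group are given in the order of replicates 1 to 3.

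AP-1 is a dimer of bZIP proteins, which grip DNA with a basic region and hold together through a leucine zipper. Jun proteins can pair with each other or with Fos proteins, while Fos proteins need a Jun partner. Dimers bind the TPA response element (TRE) and, with ATF partners, the cAMP response element (CRE). Fos, Fosb, Jun, Junb and Atf3 are immediate early genes that serum, stress and growth factors switch on for a short time. Fosl1 and Fosl2, which encode Fra-1 and Fra-2, are switched on later and stay on in growing cells. PGE2 acts on receptors of which EP2 and EP4 raise cAMP, and cAMP can act on the Fos gene through CREB at a CRE. In resting muscle stem cells the early members are also known to come on during tissue dissociation.

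Fosl1 and Jun made up most of the AP-1 transcripts in every library, and Batf3 was listed at 0 throughout. None of the 12781 tested genes passed the test between PGE2 and Vehicle (0%), and so neither did any of the 9 members that could be tested. Of these 9, Jun was the only member whose groups did not overlap, at 82.5 ± 2.71 TPM with Vehicle and 56.9 ± 15.9 TPM with PGE2 (mean ± SD, n = 3 each). Over all tested genes, 8.01% had groups without overlap in either direction. Fos spanned 0.63 to 34.2 TPM, a spread between libraries within each group that was wider than the difference between the groups.

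The promoter windows of Fos, Fosb and Jun are shown because Jun was the member without overlap between the groups and Fos and Fosb were the members with the widest spread. They are RefSeq sequences of build GRCm38.p6, from 250 bases before to 50 bases after the annotated start, and the libraries were mapped to mm10, the same genome build. Capitals mark the CRE core TGACG, in either orientation, in Fos and Fosb, and the TRE variant TGACATCA in Jun.
Fos, chr12:85473640-85473939, plus strand: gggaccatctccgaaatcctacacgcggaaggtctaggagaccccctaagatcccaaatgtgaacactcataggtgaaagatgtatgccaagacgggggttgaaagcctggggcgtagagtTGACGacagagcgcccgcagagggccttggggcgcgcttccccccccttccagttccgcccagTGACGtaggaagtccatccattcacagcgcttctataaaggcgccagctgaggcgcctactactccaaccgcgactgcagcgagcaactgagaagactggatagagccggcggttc
Fosb, chr7:19309996-19310295, minus strand: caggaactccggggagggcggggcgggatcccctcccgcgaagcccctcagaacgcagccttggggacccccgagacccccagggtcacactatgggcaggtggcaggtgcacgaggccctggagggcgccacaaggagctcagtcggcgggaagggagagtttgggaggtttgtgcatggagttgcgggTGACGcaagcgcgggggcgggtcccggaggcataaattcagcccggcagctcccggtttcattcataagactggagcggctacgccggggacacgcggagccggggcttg
Jun, chr4:95052173-95052472, minus strand: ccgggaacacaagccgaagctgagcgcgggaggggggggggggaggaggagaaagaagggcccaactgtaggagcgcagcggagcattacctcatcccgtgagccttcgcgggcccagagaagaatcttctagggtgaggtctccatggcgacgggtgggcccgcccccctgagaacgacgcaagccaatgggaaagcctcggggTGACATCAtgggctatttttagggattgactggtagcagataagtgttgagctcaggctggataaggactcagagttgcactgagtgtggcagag

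A RefSeq window was found for 9 of the 10 members, all but Fosl1, in 11 windows in all. The core TGACG was searched on both strands and was present in 5 of the 11 windows, those of Fos, Fosb, Junb and Atf3 and 1 of the 3 of Jdp2, and in 20.8% of 32817 windows of the same length. In Fos it occurred 2 times, beginning 129 and 66 bases before the start. In Fosb it began 60 bases, and in Junb 106 bases, before the start. The full CRE TGACGTCA, which contains the core, was in none of the member windows and in 1.79% of all windows. The TRE TGACTCA, read on both strands, was also in none of them and in 5.20% of all windows. The variant TGACATCA, also read on both strands, was in the Jun window, beginning 45 bases before the start, and in 3.62% of all windows. The Jund window lies upstream of the Jund gene as annotated by GENCODE M21 (chromosome 8, 70698949 to 70700616). These are matches of letters in a fixed window and show no binding.

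Of 11 muscle stem cell and myoblast markers, 9 were above 0 in all 6 libraries, while Cdh15, the M-cadherin gene, was listed at 0 in Vehicle 3 and Chrdl2 in PGE2 2. Pax7, the transcription factor of muscle stem cells, was at 23.9 to 67.0 TPM. Myf5 and Myod1, the factors of activated stem cells and myoblasts, were at 119.8 to 302.9 TPM and 89.5 to 146.2 TPM over the 6 libraries. Itga7 and Cd34, the genes of the sort markers, were at 2.69 to 13.2 TPM and 12.4 to 26.2 TPM. Markers of other cell types were present at lower summed levels than those of muscle stem cells, which reached 692 to 989 TPM. The summed level of 8 leukocyte markers was 2.93 to 11.9 TPM with Vehicle and 8.25 to 13.85 TPM with PGE2, and that of 6 fibro-adipogenic markers, mostly Col3a1, was 18.8 to 31.5 and 24.9 to 45.5 TPM, above the level of Cd34 in each library. Among the latter, Ly6a, the gene of the excluded antigen Sca1, read 2.22, 3.38 and 7.92 TPM with Vehicle and 0, 13.55 and 0 TPM with PGE2. The 7 endothelial markers summed to 4.44 to 7.42 TPM with Vehicle and 7.43 to 20.1 TPM with PGE2, with the VE-cadherin gene Cdh5 at or below 0.22 TPM throughout and Emcn alone supplying 15.3 TPM in PGE2 3. The 6 smooth muscle and pericyte markers, mostly Acta2, summed to 6.84 to 15.6 TPM with Vehicle and 10.2 to 11.95 TPM with PGE2, and Pdgfrb was listed at 0 in all libraries. Mitochondrial genes held 20.9% to 33.6% of the TPM with Vehicle and 23.0% to 30.4% in PGE2, and 16446 to 19677 and 15400 to 17710 genes were listed above 0.

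The level of each member set it in a clear order at the top and an unclear one below. Fosl1, the most abundant, had a mean of 87.0 TPM with Vehicle and 74.3 TPM with PGE2, and Jun followed in both groups with overlapping ranges. Both lay above every other member in every library. After them came Fosl2 in Vehicle with a mean of 14.4 TPM, and in PGE2 Fos with a mean of 14.2 TPM, ahead of Fosl2 with 9.43 TPM. Below Jun, and leaving out Batf3, each member's range overlapped that of the next in both groups, so their order is not set beyond the spread.

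**Figure D1:**
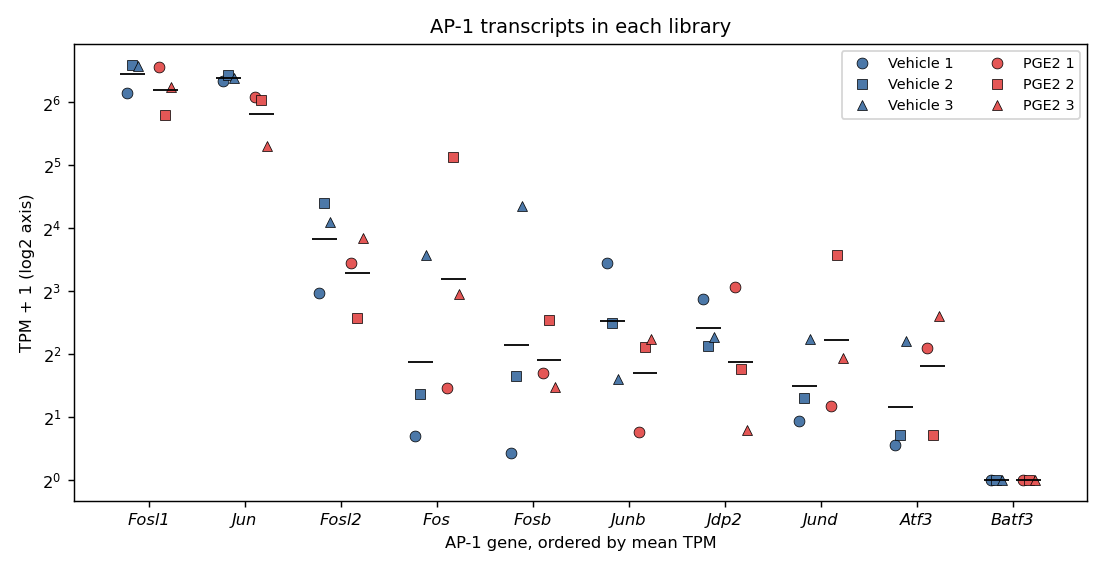
TPM + 1 on a log2 axis for the 10 AP-1 genes, ordered by mean TPM, with a point per library (blue Vehicle, red PGE2, the shape giving the replicate number) and a line at the mean of the log2 values of the 3 libraries. Fosl1 and Jun stand above the rest, Jun has no overlap between the groups, Fos and Fosb spread the most, and Batf3 is listed at 0.

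Among the Jun proteins, Jun, which encodes c-Jun and can form dimers by itself, read 79.8, 85.2 and 82.5 TPM with Vehicle and 67.0, 65.1 and 38.6 TPM with PGE2. Every PGE2 library was below every Vehicle library, and PGE2 3 was the lowest. The Vehicle libraries lay close together and the PGE2 libraries did not. The log2 change, which is the PGE2 mean minus the Vehicle mean of log2(TPM + 1), was -0.57 (95% confidence interval -1.28 to 0.14), a 0.674-fold level. It did not pass limma's test over all genes (unadjusted p = 0.102, Benjamini-Hochberg adjusted p = 1.00). An exact two-sided permutation test of the 6 libraries gave p = 0.1, the smallest that 3 against 3 allow. Every gene without overlap gets that p, so it only restates the lack of overlap. The other tested members had p = 0.4 to 0.9 in the same permutation test. Of the 9 tested members, Jun was thus the 1 without overlap, lower in PGE2, where 4.84% of all tested genes had every PGE2 library below every Vehicle library. None of the 9 had every PGE2 library above, where 3.18% of all tested genes had. In bulk RNA, fewer cells expressing a gene and less RNA per cell cannot be told apart. Without PGE2 3 the log2 change of Jun was -0.32, and leaving out each other library in turn gave -0.55 to -0.71. The summed endothelial markers also did not overlap between the groups and were higher in PGE2, but only just. Their highest Vehicle sum was 7.42 TPM and their lowest PGE2 sum 7.43 TPM. Of the 3 tested endothelial markers, 1 had a higher and 2 a lower fitted value with PGE2. The part of endothelial cells in the Jun values was not tested. Jun (chromosome 4, 95049034 to 95052222, minus strand) is a gene of 1 exon. Its stretch from 95051534 to 95052222 overlaps the antisense gene Junos, which was listed at 2.03 to 7.38 TPM. Without a stated use of strand in the counting, reads of the 2 genes from that stretch cannot be told apart.

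Junb and Jund, the other Jun proteins, were low and overlapped between the groups. Junb, which often restrains growth where c-Jun promotes it, read 9.95, 4.66 and 2.04 TPM with Vehicle and 0.69, 3.34 and 3.73 TPM with PGE2. Vehicle 1 was highest and PGE2 1 lowest, and the Vehicle range of 2.04 to 9.95 TPM enclosed the PGE2 2 and PGE2 3 values. Its log2 change was -0.81 (95% confidence interval -2.31 to 0.69), or -0.35 without Vehicle 1, -0.34 without PGE2 1 and -1.27 without Vehicle 3. Jund, the member of the group usually present in resting cells, read 0.92, 1.47 and 3.75 TPM with Vehicle and 1.27, 10.9 and 2.82 TPM with PGE2. PGE2 2 stood above the other libraries, which overlapped, and the log2 change was 0.73 (95% confidence interval -0.87 to 2.33). It was 0.06 without PGE2 2, 0.46 without Vehicle 1, 1.11 without Vehicle 3 and 1.26 without PGE2 1. The end of Junb overlaps that of Prdx2, a peroxiredoxin gene on the other strand listed at 29.6 to 89.9 TPM, which was highest in PGE2 1, where Junb was lowest. Whether reads were shared there was not tested. Summed, the 3 Jun genes were at 90.7, 91.3 and 88.25 TPM with Vehicle and 68.9, 79.4 and 45.1 TPM with PGE2, without overlap, and Jun alone supplied most of each sum.

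Among the Fos proteins, Fosl1 and Fosl2 had narrower spans between libraries than Fos and Fosb. Fosl1, which encodes Fra-1, read 70.4, 95.96 and 94.6 TPM with Vehicle and 93.1, 54.9 and 74.9 TPM with PGE2. The groups overlapped, with PGE2 2 the lowest and Vehicle 2 the highest library, only 1.75-fold apart, the smallest span of any member above 0. The log2 change of Fosl1 was -0.24 with a 95% confidence interval of -0.95 to 0.46, and it was -0.04 without PGE2 2, -0.42 without PGE2 1 and -0.39 without Vehicle 1. The end of Fosl1 overlaps Ccdc85b, a gene on the other strand listed at 0 to 2.21 TPM. Jund, Atf3 and Jdp2 are also overlapped by genes on the other strand. Whether reads were shared at these genes was not tested. Fosl2, which encodes Fra-2, read 6.87, 20.0 and 16.2 TPM with Vehicle and 9.94, 4.93 and 13.4 TPM with PGE2. Both its lowest and its highest library were the same as for Fosl1, and only PGE2 1 and PGE2 3 changed places in the order of the 6 libraries. The log2 change of Fosl2 was -0.54 (95% confidence interval -1.74 to 0.67), or -0.17 without PGE2 2, -0.25 without Vehicle 2, -0.82 without PGE2 3 and -0.96 without Vehicle 1.

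Fos and Fosb, the short-lived early members, varied most from library to library. Fos read 0.63, 1.59 and 10.9 TPM with Vehicle and 1.77, 34.2 and 6.74 TPM with PGE2. PGE2 2 was the highest and Vehicle 3 the second highest, so that each group held a high library beside low ones. The span from the lowest to the highest library was 54.3-fold, a ratio to a lowest value of 0.63 TPM, which is near the floor. The log2 change of Fos was 1.30, the largest of the members, with a 95% confidence interval of -0.90 to 3.51 (limma unadjusted p = 0.217, Benjamini-Hochberg adjusted p = 1.00). Without PGE2 2 it was 0.33, without Vehicle 1 it was 0.72, and without Vehicle 3 or PGE2 1 it was 2.15 and 2.16. Fosb, whose protein pairs with Jun as that of Fos does, read 0.35, 2.16 and 19.5 TPM with Vehicle and 2.25, 4.81 and 1.79 TPM with PGE2. Its lowest and its highest library, 55.6-fold apart, were both Vehicle libraries, and the lowest value of 0.35 TPM is also near the floor. The log2 change of Fosb was -0.24 (95% confidence interval -2.27 to 1.78) and turned to 0.86 without Vehicle 3, while leaving out each other library in turn gave -1.10 (without Vehicle 1) to -0.03 (without PGE2 3).

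The other bZIP members were at the low end. Atf3, a stress-induced repressor and activator that pairs with Jun proteins, read 0.47, 0.64 and 3.65 TPM with Vehicle and 3.30, 0.64 and 5.09 TPM with PGE2. Vehicle 3 lay among the high PGE2 libraries and PGE2 2 among the low Vehicle libraries. The log2 change was 0.65 (95% confidence interval -0.93 to 2.22), or 0.34 without Vehicle 1, 0.42 without Vehicle 2 and 1.19 without PGE2 2. Jdp2, a Jun dimerization protein that represses AP-1 sites, read 6.35, 3.37 and 3.81 TPM with Vehicle and 7.41, 2.38 and 0.74 TPM with PGE2. The PGE2 libraries held both the highest and the lowest value, and the log2 change was -0.55 (95% confidence interval -2.03 to 0.93), or -0.01 without PGE2 3, -0.32 without Vehicle 1 and -1.15 without PGE2 1. Batf3, which is best known for dendritic cell development, was listed at 0 in all 6 libraries and was not tested. In the genome, Fos and Jdp2 are 121.8 kb apart on chromosome 12, and Batf3 and Atf3 are 61.4 kb apart on chromosome 1.

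**Figure D2:**
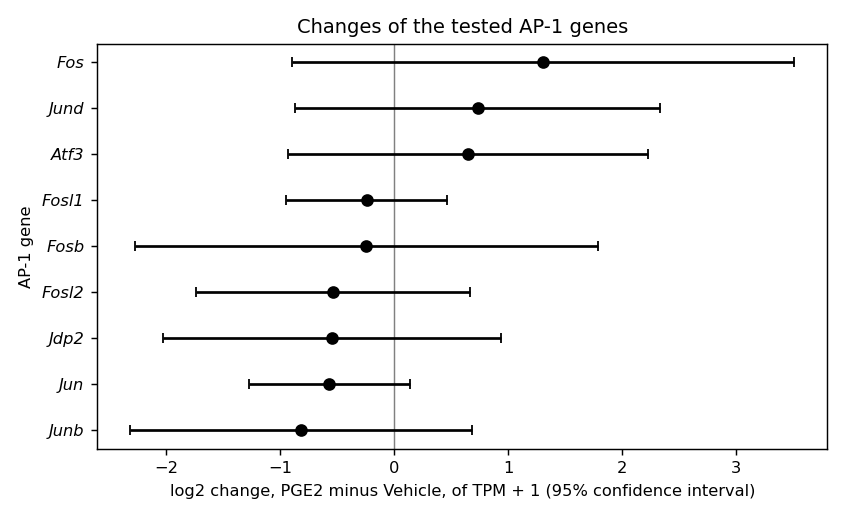
Log2 change, PGE2 minus Vehicle, of TPM + 1 for the 9 tested AP-1 genes, with bars for the 95% confidence interval of the limma fit over 3 libraries per group. Every interval includes 0, that of Jun (-1.28 to 0.14) reaches least past it among the negative changes, and those of Fosl1 and Jun are the narrowest.

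Over the 9 tested members, PGE2 had the higher fitted level for 3 and the lower for 6, with a median log2 change of -0.24. Over all 12781 tested genes 56.1% had a lower fitted value and the median was -0.07. At a Benjamini-Hochberg adjusted p under 0.05, limma called 0 of the 9 members and 0 of all tested genes (0%). At an unadjusted p under 0.05 it called 0 of the 9 members and 464 of all genes, or 3.63%.

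The make-up of the AP-1 transcripts differed between libraries more than between groups. The 10 members summed to 175.7, 215.1 and 236.8 TPM with Vehicle and 186.7, 181.2 and 147.8 TPM with PGE2. The PGE2 libraries lay within or below the Vehicle range. Fosl1 and Jun together held 85.5%, 84.2% and 74.8% of that sum in Vehicle and 85.7%, 66.2% and 76.8% in PGE2. The low shares were in Vehicle 3, where Fosb held 8.22% and Fos 4.59%, and in PGE2 2, where Fos held 18.9% and Jund 6.04%. The ratio of Fosl1 to Jun was 0.882, 1.13 and 1.15 in Vehicle and 1.39, 0.844 and 1.94 in PGE2. It was above 1 in both groups in all but Vehicle 1 and PGE2 2. The 4 Fos genes summed to 113.0 ± 32.0 TPM with Vehicle and 100.9 ± 5.40 TPM with PGE2 (mean ± SD, n = 3 each).

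**Figure D3:**
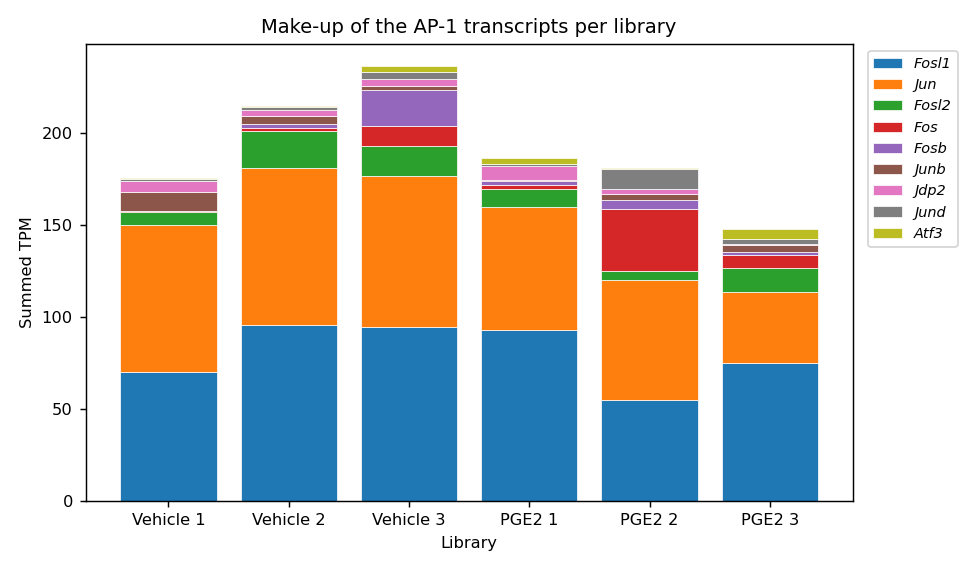
Summed TPM of the AP-1 genes in each library, stacked by gene. The bars reach 147.8 to 236.8 TPM, Fosl1 and Jun fill 66.2% to 85.7% of each, and the largest Fos and Fosb segments are in PGE2 2 and Vehicle 3.

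Fos and Jund, a Fos and a Jun protein gene, had nearly the same order of libraries. In both, PGE2 2 was highest, followed by Vehicle 3 and PGE2 3, and Vehicle 1 was lowest. Fosb shared its 2 highest libraries with them in the reverse order. Of the 2 tested fibro-adipogenic markers, Ly6a was also highest in PGE2 2 and then Vehicle 3. Col3a1 had another order, at 36.5 TPM in PGE2 1, its highest library, and 20.2 TPM in Vehicle 3. The part of such cells in the Fos, Jund and Fosb values was not tested. The other early genes did not all follow that order. Of 30 listed symbols 28 were matched and 24 tested, and PGE2 2 was the highest library for 8 of the 24 (33.3%), against 18.2% of all tested genes. Among the 8 were Klf4, a zinc finger factor, at 5.66, 7.16 and 16.0 TPM with Vehicle and 8.84, 32.3 and 10.02 TPM with PGE2, and Nr4a3, an orphan nuclear receptor. The serum-induced zinc finger gene Egr1 was instead highest in Vehicle 1, at 214.0 TPM, where Fos was lowest. Ly6a, Klf4, Nr4a3 and Egr1 were picked here after their values were seen.

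**Figure D4:**
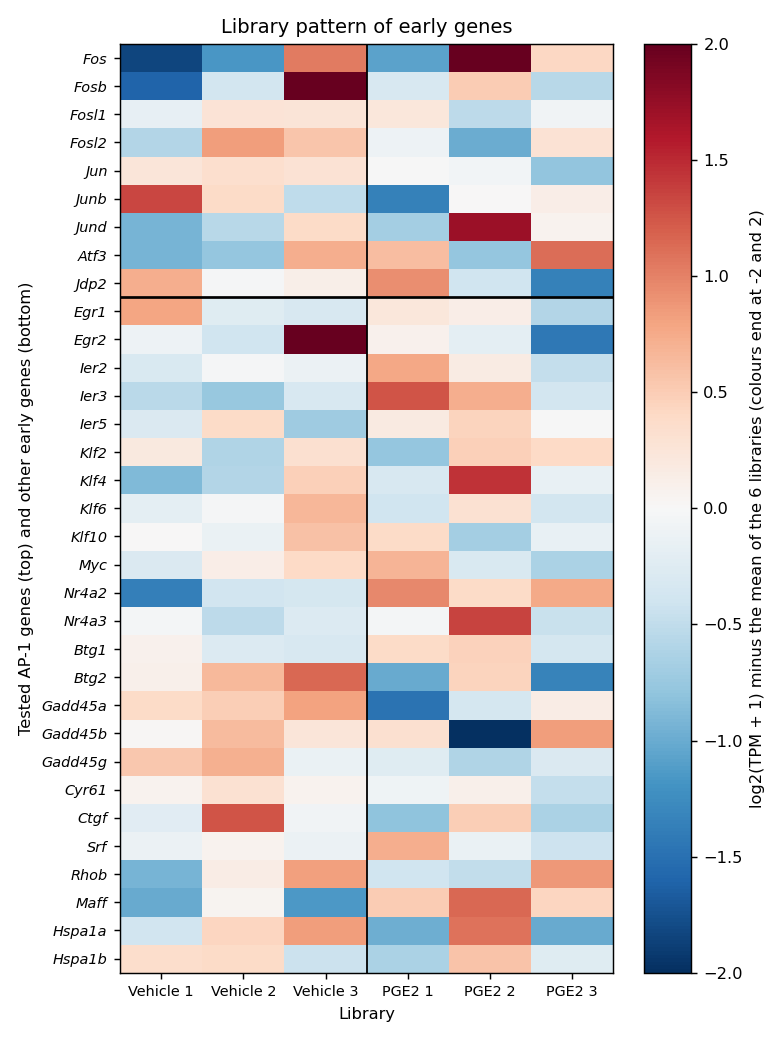
Log2(TPM + 1) minus the mean of the 6 libraries for the 9 tested AP-1 genes (top) and 24 other early genes (bottom), with libraries as columns and colours ending at -2 and 2. Fos, Jund, Klf4 and Nr4a3 are highest in PGE2 2, Fosb and Egr2 in Vehicle 3, and Junb and Egr1 in Vehicle 1.

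The early genes as a list had 10 higher and 14 lower fitted values and a median log2 change of -0.16, with 0 of 24 past the adjusted threshold in limma and 3 at an unadjusted p under 0.05, which 3.63% of all tested genes had. The groups did not overlap for 4 of them, against 8.01% of all tested genes. Of these 4, Nr4a2, an orphan nuclear receptor and CREB target, had a log2 change of 1.40 and Maff, a small Maf protein that pairs with other bZIP factors, 1.39, both higher in PGE2. Maff read 2.58, 6.42 and 2.25 TPM with Vehicle and 9.24, 14.8 and 8.69 TPM with PGE2. Gadd45a and Gadd45g, stress genes of growth arrest and DNA repair, were lower in every PGE2 library. Gadd45a read 176.9, 191.2 and 235.4 TPM with Vehicle and 47.7, 105.8 and 150.0 TPM with PGE2, a log2 change of -1.12. Gadd45g read 25.4, 28.6 and 15.5 TPM with Vehicle and 14.3, 10.97 and 13.8 TPM with PGE2. None of the 4 passed limma's test with Benjamini-Hochberg adjustment over all genes (adjusted p = 1.00 each).

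Of 14 other bZIP factors that can pair with Fos or Jun proteins or share their sites, Maff among them, 9 were tested, 3 higher and 6 lower by fitted value with PGE2. The median of their log2 changes was -0.32. The groups did not overlap for 2 of the 9, Maff and Atf2, against 8.01% of all tested genes. Atf2, a Jun partner that binds the CRE and the Jun promoter, read 72.0, 74.1 and 110.8 TPM with Vehicle and 62.7, 37.5 and 56.9 TPM with PGE2. Its groups did not overlap, as those of Jun did not, and its log2 change was -0.70 (95% confidence interval -1.44 to 0.04, limma Benjamini-Hochberg adjusted p = 1.00). Batf, Batf2, Mafa and Nrl were listed at 0 in all libraries, like Batf3.

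The kinases and factors that act on AP-1 genes had mostly small fitted changes. Of 15 tested MAP kinases and their activators, 6 were higher and 9 lower, with log2 changes from -0.43 to 0.56 and a median of -0.13. Map2k3, an activator of p38, had no overlap, at 61.7, 62.3 and 69.0 TPM with Vehicle and 61.3, 45.0 and 38.9 TPM with PGE2, although Vehicle 1 and PGE2 1 differed by less than 1 TPM. Of 6 tested genes of the serum response factor SRF and its partners, 2 were higher and 4 lower (median log2 change -0.11). Elk1, a partner of SRF on the Fos serum response element, read 11.9, 8.65 and 10.6 TPM with Vehicle and 7.99, 1.70 and 4.80 TPM with PGE2, also without overlap, with a log2 change of -1.12. Of 10 tested dual-specificity phosphatases that switch MAP kinases off, 4 were higher and 6 lower (median -0.18), and none was without overlap. The 2 with the smallest p were Dusp6, at 34.3 ± 9.51 TPM with Vehicle and 25.3 ± 8.58 TPM with PGE2, and Dusp10, at 19.1 ± 2.29 and 16.0 ± 15.1 TPM (mean ± SD, n = 3 each). None of the 31 genes of these 3 lists passed limma's adjusted threshold. In limma, 0 of them had an unadjusted p under 0.05, against 3.63% of all tested genes. Without overlap were 1 of 15, 1 of 6 and 0 of 10 genes of the 3 lists, against 8.01% of all tested genes.

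Regulators of AP-1 protein and mRNA included the ubiquitin ligase gene Rfwd2, now named Cop1, which targets c-Jun for degradation. Rfwd2 read 84.3, 71.7 and 70.5 TPM with Vehicle and 37.7, 33.1 and 59.2 TPM with PGE2. Every PGE2 library was lower, with a log2 change of -0.83 (95% confidence interval -1.55 to -0.10, limma unadjusted p = 0.0289, Benjamini-Hochberg adjusted p = 1.00). Apex1, whose protein Ref-1 reduces a cysteine in Fos and Jun and also repairs DNA, read 42.3, 37.1 and 49.2 TPM with Vehicle and 84.4, 57.8 and 57.3 TPM with PGE2. Every PGE2 library was higher, and the log2 change was 0.61 (95% confidence interval -0.09 to 1.30). Of the 12 tested genes of this list 4 were higher and 8 lower, with a median of -0.18, and 0 passed the adjusted threshold. The groups did not overlap for 2 of the 12, against 8.01% of all tested genes. In limma, 1 of the 12 had an unadjusted p under 0.05, against 3.63% of all tested genes.

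Of 34 textbook AP-1 targets, Fosl1 among them, 26 were tested, 13 higher and 13 lower, with a median log2 change of -0.04. None passed the threshold of 0.05 on limma's adjusted p. Only 1, Spp1, had an unadjusted p under 0.05 in limma, which 3.63% of all tested genes had. Spp1, which encodes the secreted matrix protein osteopontin, read 749, 969.9 and 634 TPM with Vehicle and 2691, 1528 and 1629 TPM with PGE2. All PGE2 libraries were higher, with a log2 change of 1.29 (95% confidence interval 0.50 to 2.08, limma unadjusted p = 0.00462, Benjamini-Hochberg adjusted p = 1.00). Plaur, the urokinase receptor gene, read 19.8, 17.4 and 22.2 TPM with Vehicle and 3.73, 16.96 and 15.4 TPM with PGE2. Hmox1, the heme oxygenase gene, was at 215.1 ± 9.74 TPM with Vehicle and 182.1 ± 19.2 TPM with PGE2 (mean ± SD, n = 3 each). Both were lower in every PGE2 library without passing the test. With Spp1 they made 3 of the 26 tested targets without overlap, against 8.01% of all tested genes. The matrix proteases Mmp3, Mmp10 and Mmp13, classic AP-1 targets, were too low to test and stayed at or below 2.11 TPM. Of the list's other matrix proteases, Mmp1a, Mmp9 and Mmp12 were also not tested and reached 0.28, 3.92 and 5.09 TPM. Mmp14 was tested, at 1.36 to 16.1 TPM over the 6 libraries, with overlapping groups and a log2 change of 0.96.

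**Figure D5:**
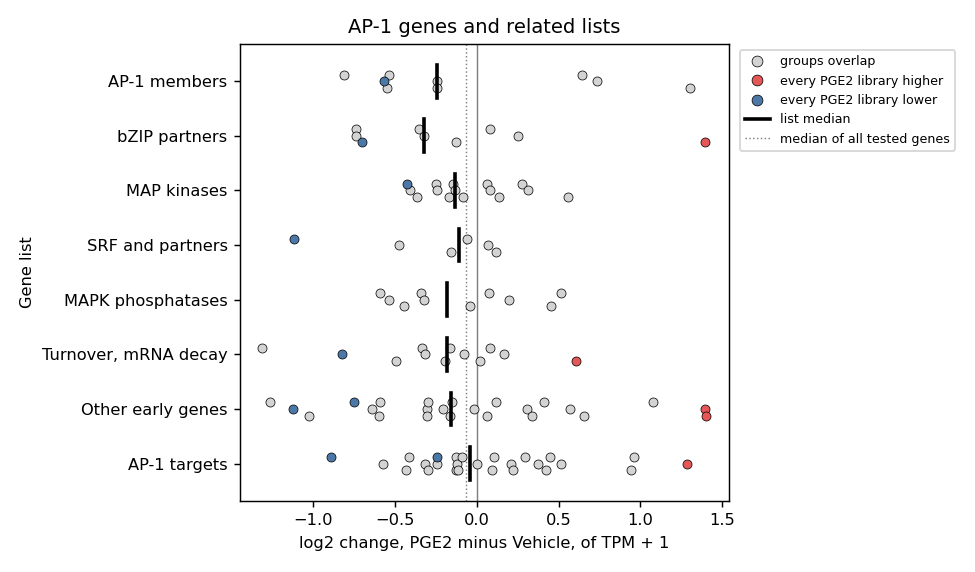
Log2 change, PGE2 minus Vehicle, of TPM + 1 for each tested gene of the AP-1 members and 7 related lists, coloured where the groups do not overlap, with a bar at the list's median and a dotted line at the median of all tested genes (-0.07). The medians run from -0.32 for the bZIP partners to -0.04 for the AP-1 targets, and each list holds genes on both sides of 0.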

How the data were processed

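Per the labels' protocols, RNA was extracted with a Qiagen micro kit, the cDNA amplified with NuGEN Ovation v2 and libraries built with an Illumina kit. STAR and RSEM and the build mm10 are named in the submitters' processing notes; no version, setting, strand handling or annotation release is given in the sources used here. The values the authors deposited are TPM, as inferred from columns with 2 decimals that sum to 992357 to 995645. TPM keeps no depth, so no counting interval is given.

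Genes with at least 1 TPM in at least 3 libraries were tested (12781) on log2(TPM + 1), with limma 3.58.1 in R 4.3.3 (prior with a mean trend, not robust), two-sided, adjusted by Benjamini-Hochberg over all tested genes, with a threshold of 0.05. Low genes have understated changes on this scale. The fit was checked on simulated data. A group "without overlap" has every library on one side of every library of the other group. Positions are from GENCODE M21 and promoter windows from RefSeq, both of the mm10 genome. Python 3.11.15 made tables and figures.

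The members and gene lists were chosen with earlier results of these data known. Named from the 7 related lists were the tested genes without overlap, up to 4 a list by smallest p, or else the 2 with the smallest p. Some genes named only to describe levels (the matrix proteases, genes at 0, overlapping genes) were chosen after their values were seen. Alternatives covered pseudocount, filter, scaling, mitochondrial genes, library weights, variance prior, a block for the replicate number and each library left out.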

Additional observations from a re-analysis of the deposited data

How the results depend on the processing

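No member passed the adjusted threshold under any of the 16 alternatives, where the smallest adjusted p in limma (Benjamini-Hochberg) was 0.646. Over all genes the count past the threshold was 1 with a robust variance prior and 0 to 1 when each library was left out. Of 136 member changes under the alternatives, 133 kept their sign. The 3 that reversed were all of Fosb, at 0.044 with a pseudocount of 0.1 TPM, 0.051 with array weights and 0.86 without Vehicle 3 (range over left-out libraries -1.10 to 0.86), and the cause was not tested. Jun stayed between -0.71 and -0.32, with an unadjusted p of 0.0421 to 0.318, the smallest with array weights. Array weights and a pseudocount of 0.1 TPM moved the median of all genes to -0.12 and -0.10, and leaving out PGE2 1 to -0.18, against which the change of Jun was -0.68, -0.58 and -0.71. Atf3 could not be tested without Vehicle 3, PGE2 1 or PGE2 3, and a filter of 5 TPM kept only 4 members.

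Replicate numbers gave no sign of pairing: same-numbered libraries' deviations from their group means correlated at -0.06, -0.04 and 0.07 over 12781 genes. With the replicate block, 0 genes and 0 members passed, and Jun had a log2 change of -0.57, as without it. Unknown read depth limits the low members (Fos, Fosb, Junb, Jund, Atf3, Jdp2), for which counting error cannot be separated from the spread.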
